A study of Mus musculus with 6 samples.

Results

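The genes described here encode collagen chains, laminin chains and integrin subunits. They are the 59 genes whose symbol in the array's annotation is that of such a chain or subunit, of 13840 genes named on the array, and no measured value was used to choose them. They comprise 34 collagen, 7 laminin and 18 integrin genes. They have 60 probes, because Col23a1 has 2, and the brighter probe of that gene was used. The tissue was presomitic mesoderm, the unsegmented tissue behind the somites, taken from mouse embryos at embryonic day 10.5. Both genotypes came from crosses of heterozygous parents. The first group was littermate wild type, and the second was Nrarp knockout, in which LacZ takes the place of the Nrarp coding region. The labels give neither strain nor sex. There were 3 one-colour arrays of either genotype, with replicate numbers 1 to 3. The tissue of 12 embryos had been collected per genotype, and how it was divided among the arrays is not stated, so that the spread between arrays behind each p-value may be technical.

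Collagens are trimers of coiled chains that form fibrils, basement membrane networks or membrane-anchored molecules. Laminins are cross-shaped trimers of an alpha, a beta and a gamma chain that start the assembly of basement membranes, and integrins are receptors made of an alpha and a beta subunit that tie these matrices and fibronectin to the actin cytoskeleton. In the presomitic mesoderm and somites, fibronectin and laminin surround the tissue, and integrins that bind them take part in the formation of epithelial somites.

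The values are scaled intensities with array medians between 0.981 and 0.993. The replicate 1 arrays of both genotypes stood apart, with 75th percentiles of 8.88 (wild type) and 9.71 (knockout) against 4.90 to 5.88 on the other 4 arrays. Counts of genes that passed, and some of the other results, are also given without them. The Nrarp probe read 318, 429 and 448 on wild-type arrays against 14.3, 42.5 and 23.3 on knockout arrays, in the direction of the labels (log2 difference -4.03, limma adjusted p 0.428 without and 0.00042 with the replicate block). Of 11 markers of presomitic mesoderm, 9 lay above the level used here for detection on all 6 arrays and 2 (Msgn1 and Hes7, named after their values were seen) on 5 and 2 arrays. Hes7 averaged 59.2 on the replicate 1 arrays against 1.57 on the others, and Msgn1 50.2 against 3.47. Tbx6 (451 against 763), Dll3, Rspo3 and Evx1 were lower on replicate 1, and the remaining markers were higher. Tbx6, Dll3 and Evx1 were also named after their values were seen. The sums of the 11 markers overlapped, at 1631 to 1691.6 on replicate 1 and 1690.7 to 1867.5 on the others. Without a replicate term limma gave an adjusted p under 0.05 to 0 of 33012 probes (217 had an unadjusted p under 0.05), and with the replicate number as a block to 2.

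The files hold no detection calls. Probes of olfactory and vomeronasal receptor genes, which are used by sensory neurons, served as a stand-in for probes without a target in this tissue. There were 860 such probes, and their 95th percentile lay between 2.49 and 3.36 on the 6 arrays. A gene was taken as above the receptor level where its probe exceeded that percentile on every array. By this measure 28 of the 860 receptor probes passed themselves. Probes differ in how strongly they bind, so a brighter probe does not mean more RNA, and levels of different genes are not ranked here. In whole tissue, fewer cells that express a gene and less RNA per cell cannot be told apart.

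Of the 59 genes, 21 (35.6%) lay above the receptor level on all 6 arrays, 9 on some and 29 on none. Among all named genes the share above it on all arrays was 37.3%, close to that of the members. By family the counts were 17 of 34 collagens, 2 of 7 laminins (28.6%) and 2 of 18 integrins (11.1%). With the 99th percentile of the receptor probes in place of the 95th, 8 members remained, namely Col1a2, Col4a1, Col4a2, Col5a1, Col5a2, Col18a1, Lamb1 and Itgb1.

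**Figure D1:**
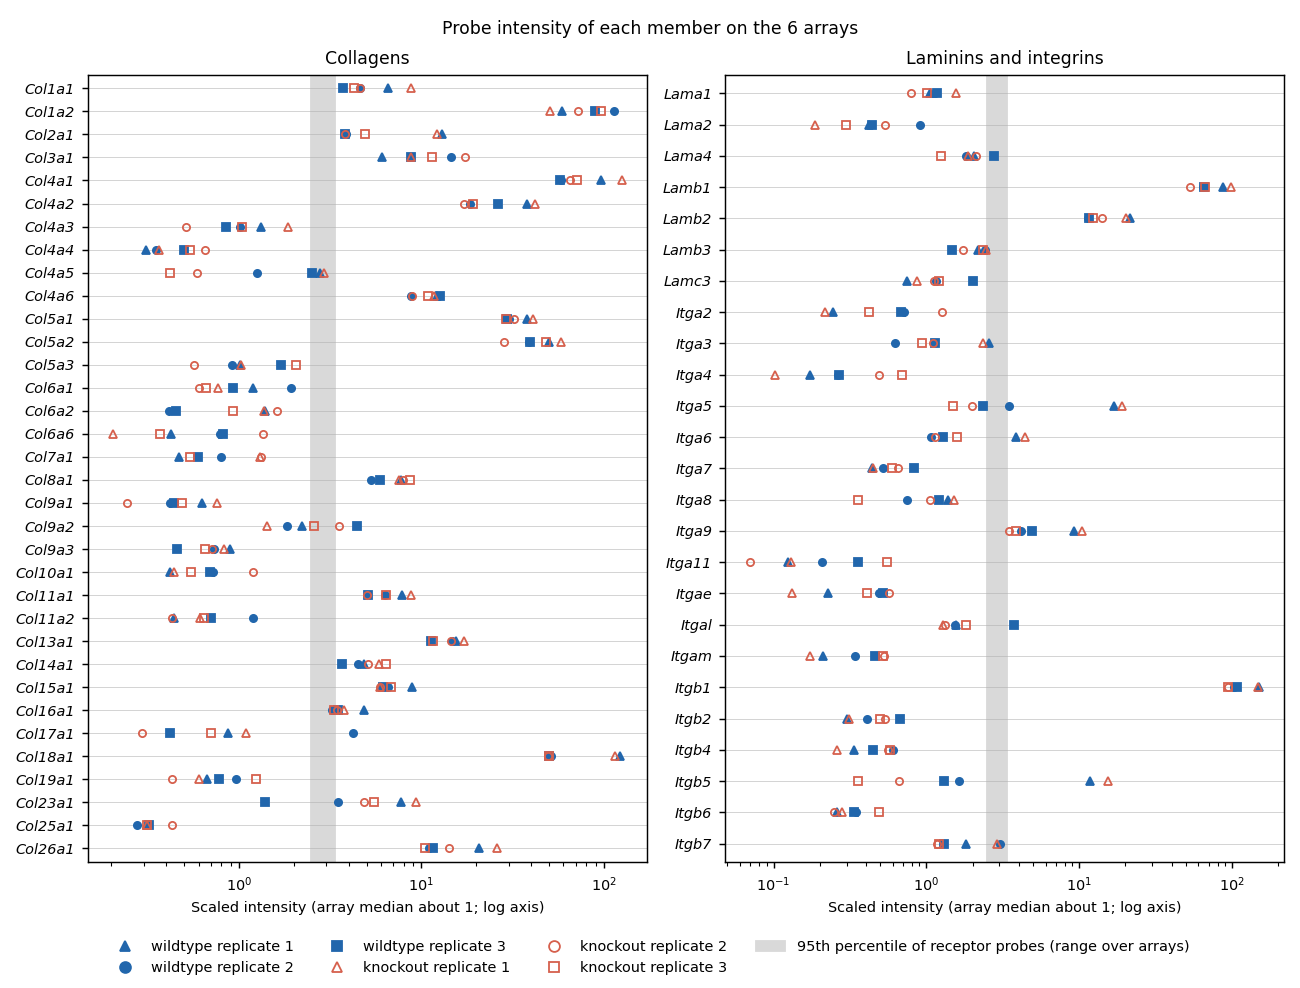
Scaled intensity (log axis) of the 59 genes on each of the 6 arrays, with collagens on the left and laminins and integrins on the right; filled symbols are wild type, open symbols knockout, triangles replicate 1, circles replicate 2 and squares replicate 3. The grey band spans the 95th percentiles of the receptor probes, 2.49 to 3.36, and 21 genes lie above it on every array, 17 of them collagens.

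Fibrillar collagens, which assemble into the rope-like fibrils of connective tissue, were the collagen class with the most members above the receptor level, at 7 of 9 measured. Col1a2, a chain of collagen I, read 59.3, 113 and 89.8 on wild-type arrays 1 to 3 and 50.4, 71.9 and 96.3 on knockout arrays 1 to 3. The probe of its partner chain gene Col1a1 read 6.54, 4.61 and 3.72 on wild-type arrays and 8.76, 4.61 and 4.26 on knockout arrays. The wild-type and knockout ranges of both genes overlapped. Col5a1 and Col5a2, which encode the chains of collagen V that starts fibrils, read 32.5 ± 4.64 and 42.8 ± 6.14 on wild-type arrays and 34.1 ± 5.97 and 44.9 ± 15.4 on knockout arrays (SD, n = 3 arrays each). Col3a1, the chain of collagen III, read 6.10, 14.6 and 8.81 on wild-type arrays and 8.74, 17.3 and 11.4 on knockout arrays. Col2a1, the main collagen of cartilage and notochord sheath, read 13.0, 3.87 and 3.82 on wild-type arrays and 12.2, 3.79 and 4.91 on knockout arrays. In Col2a1 the replicate 1 array was the high one in both genotypes, and in Col3a1 it was the low one. Col11a1, which encodes a minor fibril chain that associates with collagen II, read 6.42 ± 1.36 and 6.72 ± 1.90 (SD, n = 3). Col5a3 and Col11a2 were above the receptor level on 0 arrays.

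Collagen IV forms the sheet-like network of basement membranes, and its 6 chain genes lie in the genome as 3 neighbouring pairs. The pair Col4a1 and Col4a2 on chromosome 8 was above the receptor level on all arrays. Col4a1 read 96.0, 58.3 and 57.6 on wild-type arrays and 125, 64.8 and 70.8 on knockout arrays, and Col4a2 read 37.8, 18.4 and 26.4 against 41.9, 17.2 and 19.2. Both were highest on the replicate 1 array of each genotype. The genes of this pair lie on opposite strands, and their RefSeq promoter windows (GRCm38.p6, 300 bases each) overlap by 78 bases. The pair Col4a3 and Col4a4 on chromosome 1, whose products occur in specialised basement membranes such as that of the kidney glomerulus, was above the receptor level on 0 arrays. The pair on the X chromosome split. Col4a6 read 12.2, 8.80 and 12.6 on wild-type arrays and 11.7, 8.91 and 10.9 on knockout arrays, whereas Col4a5 read 2.78, 1.26 and 2.50 against 2.93, 0.590 and 0.420 and exceeded the receptor level on 2 arrays only, those of replicate 1.

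Outside collagen IV, 3 pairs of collagen genes are neighbours. Col3a1 and Col5a2 on chromosome 1 were both above the receptor level on all arrays. Col6a1 and Col6a2 on chromosome 10, which encode chains of the beaded filaments of collagen VI, and Col9a1 and Col19a1 on chromosome 1 were above it on 0 arrays. Col6a1 averaged 1.35 on wild-type arrays and 0.676 on knockout arrays, and Col6a2 averaged 0.749 and 1.30.

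The remaining collagens associate with fibrils, form other networks or are anchored in membranes. Col18a1, a basement membrane collagen whose end piece is endostatin, read 123, 51.1 and 50.2 on wild-type arrays and 114, 49.2 and 50.04 on knockout arrays. The 4 arrays of replicates 2 and 3 differed little, and the replicate 1 arrays were the high ones. The related Col15a1 read 7.20 ± 1.42 and 6.22 ± 0.531 (SD, n = 3). Of the fibril-associated collagens, Col14a1 and Col16a1 were above the receptor level on all arrays, Col9a2 on 3 and the cartilage collagen genes Col9a1 and Col9a3 on 0. Col8a1, a network-forming chain of vessel walls, read 7.75, 5.32 and 5.90 on wild-type arrays and 7.55, 7.87 and 8.70 on knockout arrays. Membrane-anchored Col13a1, found at sites of cell adhesion, read 13.8 ± 2.22 and 14.5 ± 2.77 (SD, n = 3). Col26a1 was above the receptor level on all arrays as well. Col7a1 of the skin's anchoring fibrils and Col10a1 of hypertrophic cartilage were above it on 0 arrays, and Col17a1 of hemidesmosomes on 1.

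Among the laminins only beta chains were above the receptor level on all arrays, and not all chains were analysed. Lamb1, the beta chain of the laminins of the early embryo, read 86.5, 64.1 and 65.6 on wild-type arrays and 98.2, 52.7 and 66.5 on knockout arrays. Lamb2, a beta chain of vessel and nerve-muscle basement membranes, read 21.5, 11.3 and 11.5 against 20.3, 14.0 and 12.2. For both genes the replicate 1 arrays were highest and the genotypes overlapped. The alpha chain genes Lama1 (early embryo), Lama2 (muscle) and Lama4 (vessels), the epithelial beta chain gene Lamb3 and the gamma chain gene Lamc3 were above the receptor level on 0 arrays. Lama1 averaged 1.12 in both genotypes, close to the array medians. Lama5 and Lamc1 have no named probe here and were not analysed, so that no complete laminin trimer can be listed.

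Of the integrins, Itgb1 and Itga9 were above the receptor level on all arrays. Itgb1, the beta subunit shared by most receptors for collagen, laminin and fibronectin, read 149, 102 and 107 on wild-type arrays and 148, 93.7 and 92.9 on knockout arrays. Itga9, an alpha subunit that binds tenascin and related ligands, read 9.23, 4.14 and 4.89 against 10.4, 3.48 and 3.85. The replicate 1 array was the highest of each genotype in both genes. The fibronectin receptor alpha subunit gene Itga5 exceeded the receptor level on 3 arrays, with 16.8, 3.47 and 2.34 on wild-type arrays and 18.9, 1.97 and 1.497 on knockout arrays. Itgb5, a beta subunit of vitronectin receptors, exceeded it on the replicate 1 arrays only, with 11.8, 1.64 and 1.31 against 15.3, 0.664 and 0.358. The laminin receptor gene Itga6 did so too, with 3.83, 1.06 and 1.28 against 4.40, 1.14 and 1.57. In these 3 genes the replicate 1 arrays were far above the others whatever the genotype.

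The other laminin-binding subunits (Itga3 and Itga7), the measured collagen-binding subunits (Itga2 and Itga11) and Itga4, whose product binds fibronectin and VCAM1, were above the receptor level on 0 arrays. Itga8, whose product pairs with that of Itgb1, was also above it on 0 arrays. So were the epithelial beta subunits Itgb4 and Itgb6. Of the 5 measured leukocyte subunits, Itgae, Itgam and Itgb2 were above it on 0 arrays, and Itgal and Itgb7 on 1 each. Itgav, Itgb3 and Itgb8 have no named probe here.

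Knockout and wild-type arrays were compared to ask whether loss of Nrarp changes these genes. None of the 59 genes passed. In limma without a replicate term, 0 of 59 members had an adjusted p under 0.05 (smallest 1.00, against 0% of all probes called). The number with an unadjusted p under 0.05 was also 0, against 0.657% of all probes and 0.52% of named genes. With the replicate number as a block, 0 members passed after adjustment (smallest adjusted p 0.999 in limma, against 0.00606% of all probes called). At an unadjusted p under 0.05 the blocked fit placed 4 members, Col23a1, Col3a1, Col4a1 and Col4a5, against 3.75% of all probes and 3.42% of named genes. In simulated data 0% of 2-fold and 0% of 4-fold changes were recovered without the block, so its lack of calls does not show that the genes were unchanged.

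The differences of the 21 members above the receptor level were small. They lay between -0.26 and 0.42 on the log2 scale, knockout minus wild type, with 12 positive and 9 negative. The 95% intervals of the blocked fit lay within a 2-fold change in either direction for all 21 members, and those of the fit without the block for 9. The pairing behind the block was taken from the data, and the spread between arrays may be technical. The blocked intervals may therefore be too narrow. Over whole families the median difference was 0.03 for 34 collagens, -0.05 for 7 laminins and -0.08 for 18 integrins, beside -0.00 for all named genes. The signs of the collagen and integrin medians held with 75th percentile centring and quantile normalization, and the laminin median was 0.00 with the former. Leaving out single arrays moved the collagen median between -0.12 (without knockout replicate 1) and 0.13 (without knockout replicate 2) and the laminin median between -0.27 (without knockout replicate 1) and 0.16 (without knockout replicate 2), so that neither sign was stable. The laminin median was -0.36 without both replicate 1 arrays. Members that were not above the receptor level on all arrays differed more, with a median size of 0.24 against 0.12 for those above it. The same held for all named genes, at 0.31 against 0.09.

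**Figure D2:**
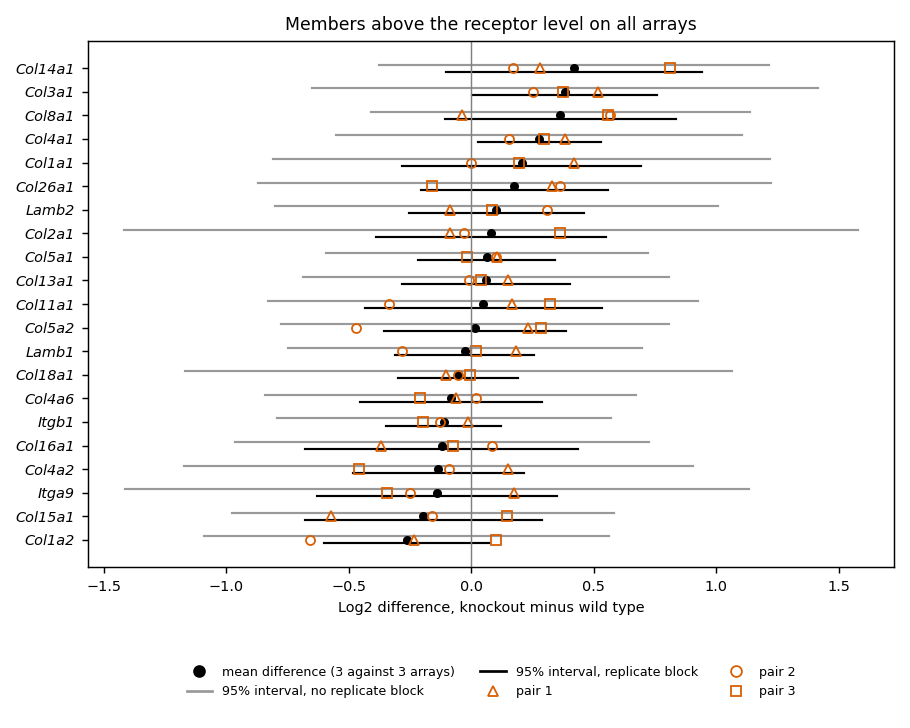
Log2 difference, knockout minus wild type, of the 21 genes above the receptor level on all 6 arrays. Black points are means of 3 against 3 arrays, grey and black lines the 95% intervals without and with the replicate block, and orange symbols the 3 pairs of arrays with the same number; all points lie between -0.26 and 0.42, and the blocked intervals stay within a log2 difference of 1.

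Single members illustrate how narrow or wide these values are. Itgb1 averaged 119 ± 25.9 on wild-type arrays and 111 ± 31.5 on knockout arrays (SD, n = 3), a log2 difference of -0.11 with a 95% interval of -0.79 to 0.57 without and -0.35 to 0.12 with the block. Lamb1 averaged 72.0 ± 12.5 and 72.4 ± 23.3 (SD, n = 3), with a log2 difference of -0.03. Its interval was -0.75 to 0.70 without and -0.31 to 0.26 with the block. For Col18a1 the log2 difference was -0.05, with an interval of -1.17 to 1.06 without and -0.30 to 0.19 with the block. The intervals of these 3 genes are centred near 0 and include it in both fits, and they are narrow only with the block. The intervals of Itga5 were wider in both fits. Its log2 difference was -0.43 with an interval without the block of -2.98 to 2.12, and its arrays differed widely by replicate. With the block its interval was -1.03 to 0.17. For Itgb5 the difference was -0.93 (blocked interval -1.94 to 0.07), positive at 0.38 in pair 1 and negative at -1.31 and -1.87 in pairs 2 and 3, where its probe lay below the receptor level.

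Of the 59 members, 6 were higher in the knockout in each of the 3 pairs of arrays with the same number (Col3a1, Col4a1, Col4a4, Col14a1, Col23a1 and Itga6), against 13.9% of named genes. Another 5 were lower in each pair (Col6a1, Col18a1, Lama2, Itgal and Itgb1), against 9.39%. Among the 21 above the receptor level the counts were 3 and 2, against 15.4% and 7.76% of named genes above that level. The shares of members thus lay near those of all genes, and 0 of these 11 members passed the test. Col4a1 differed by 0.28 on the log2 scale (SE 0.11 with the block), with pair values of 0.38, 0.15 and 0.30. In limma its unadjusted p was 0.459 without and 0.0331 with the block, and its blocked adjusted p was 0.999. Its neighbour Col4a2 differed by -0.13, with pair values of 0.15, -0.09 and -0.46. Col3a1 differed by 0.38 (SE 0.17 with the block), with pair values of 0.52, 0.25 and 0.38, and an adjusted p of 0.999 in the blocked limma fit. The wild-type and knockout arrays of Col4a1, Col4a2 and Col3a1 overlapped.

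Col14a1, a collagen that decorates fibrils, and Col6a1 were the 2 members whose groups did not overlap, the first higher and the second lower in the knockout. Groups did not overlap for 3.78% of all probes, 2.04% higher and 1.74% lower. Col14a1 read 4.82, 4.51 and 3.66 on wild-type arrays and 5.86, 5.08 and 6.43 on knockout arrays, a log2 difference of 0.42 (SE 0.34 without the block). The exact permutation test gave p = 0.1 (two-sided), the smallest that 3 against 3 arrays allow, and the limma adjusted p was 1.00. Col6a1 read 1.19, 1.93 and 0.926 against 0.769, 0.602 and 0.657, a log2 difference of -0.94, with all 6 readings below the receptor level. Col8a1, Col14a1 and Col3a1 were the members above the receptor level with the largest positive differences (0.36, 0.42 and 0.38), and Col1a2, Col15a1 and Itga9 those with the largest negative ones (-0.26, -0.20 and -0.14).

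Of the other members with an unadjusted p under 0.05 in the blocked fit, Col23a1 encodes a membrane-anchored collagen. Its probe read 7.72, 3.48 and 1.39 on wild-type arrays and 9.34, 4.87 and 5.51 on knockout arrays. The log2 difference was 0.92 (unadjusted p 0.0245 and adjusted p 0.999 in the blocked limma fit). Its pair values were 0.28, 0.48 and 1.99, and it was above the receptor level on 5 arrays, all but wild-type replicate 3. Its other probe, which was dim, differed by -0.01. Col4a5 differed by -1.20, with pair values of 0.08, -1.10 and -2.57, so that the difference lay in pairs 2 and 3, where all readings were below the receptor level. Without both replicate 1 arrays 5 members had an unadjusted p under 0.05 (Col23a1, Col4a5, Col6a2, Itga4 and Itgb5), against 4.26% of all probes. Adding the block to these 4 arrays gave the same 5 members, against 5.84%. Without wild-type replicate 1 there were 2 (Col23a1 and Col6a2, against 1.27%) and without knockout replicate 1 there were 3 (Col4a5, Itga4 and Itgb5, against 3.01%). Array weights gave 9, against 9.53%, and the block with a variance prior without intensity trend gave Col6a1 and Lama2, against 4.52%. Col6a1, Col6a2, Lama2 and Itga4 were above the receptor level on 0 arrays.

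**Figure D3:**
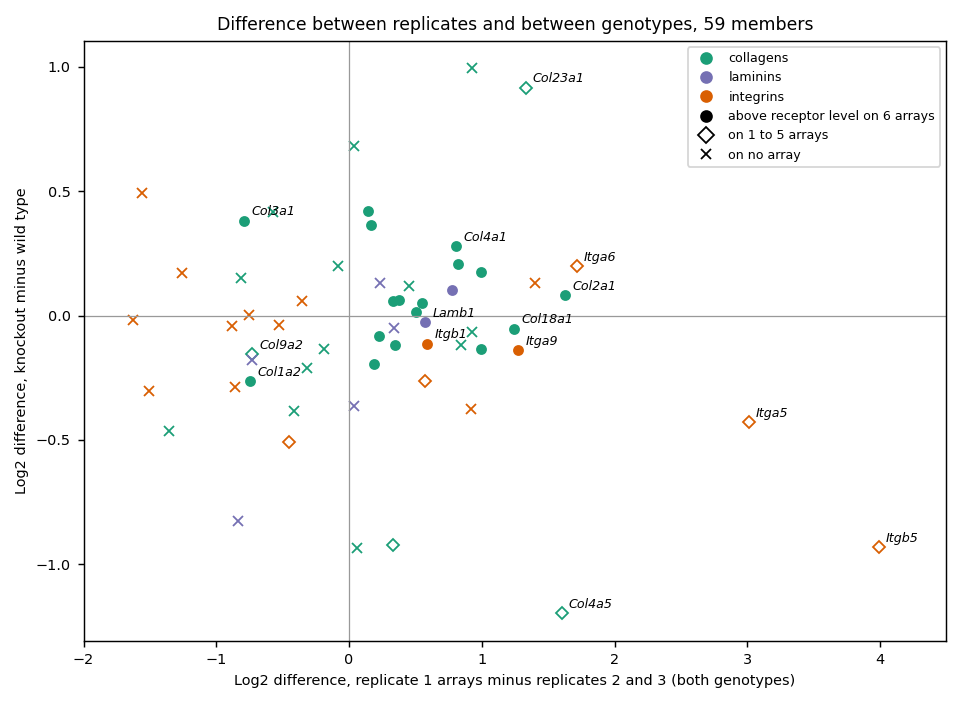
Log2 difference between the replicate 1 arrays and those of replicates 2 and 3 (horizontal, both genotypes) against the log2 difference between knockout and wild type (vertical) for the 59 genes, coloured by family. Filled circles are above the receptor level on 6 arrays, diamonds on some and crosses on none; Itgb5 at 3.99 and Itga5 at 3.01 lie far to the right, and the filled circles stay between -0.26 and 0.42 in height.

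For many members the arrays differed more by replicate number than by genotype. Over all 59 genes both replicate 1 arrays were above the other 4 for 25 and below them for 11. Among the 13840 named genes the counts were 5267 above and 3683 below. Over all probes, most of which had no gene name, the shares were 25.2% and 34.4%. Among the 21 members above the receptor level, both replicate 1 arrays were above the other 4 for 15 genes and below them for 2, Col1a2 and Col3a1. Of all named genes above that level, 53.6% had both replicate 1 arrays above all others and 24.3% below them, so the direction of most members was that of most genes. The median difference, replicate 1 minus replicates 2 and 3, was 0.55 for these 21 members and 0.37 for all named genes above the level. With arrays centred on their 75th percentile these medians were -0.23 and -0.40, and with quantile normalization 0.07 and -0.11, so the sign of the members' median depends on the scaling. Of the 21, 19 were higher on replicate 1 as deposited, 7 with 75th percentile centring and 11 with quantile normalization. Members above the receptor level on no array had a median of -0.35, and the receptor probes themselves had -0.86, so dim probes read lower on the replicate 1 arrays. This split of the arrays was seen in the data and no test was made of it.

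Some members kept their direction between replicates under each scaling tried. Itgb5 averaged 13.5 on the replicate 1 arrays and 0.993 on the others, a log2 difference of 3.99, which stayed at 3.21 with centring on the 75th percentile and 3.57 with quantile normalization. A difference of at least that size was found for 0.658% of all named genes. Itga5 averaged 17.9 against 2.32, with log2 differences of 3.01, 2.24 and 2.35 under the same 3 scalings, and 2.97% of named genes reached its value. Itga6 averaged 4.11 against 1.26 (1.72, 0.94 and 1.24), Col2a1 12.6 against 4.09 (1.63, 0.85 and 0.86) and Col18a1 119 against 50.1 (1.24, 0.47 and 1.01). Their deposited values were reached by 15.4%, 16.8% and 22.8% of named genes, so differences of that size were common. On the lower side, Col1a2 averaged 54.8 against 92.9 (-0.75, -1.52 and -1.05) and Col3a1 7.42 against 13.0 (-0.79, -1.57 and -1.51). Col9a2 gave -0.73, -1.51 and -1.13. Values as low as the deposited ones of Col1a2, Col3a1 and Col9a2, or lower, were found for 24.3%, 22.9% and 24.9% of named genes. Itgb1 and Lamb1, at 0.59 and 0.57 as deposited, changed sign to -0.19 and -0.20 with centring on the 75th percentile.

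**Figure D4:**
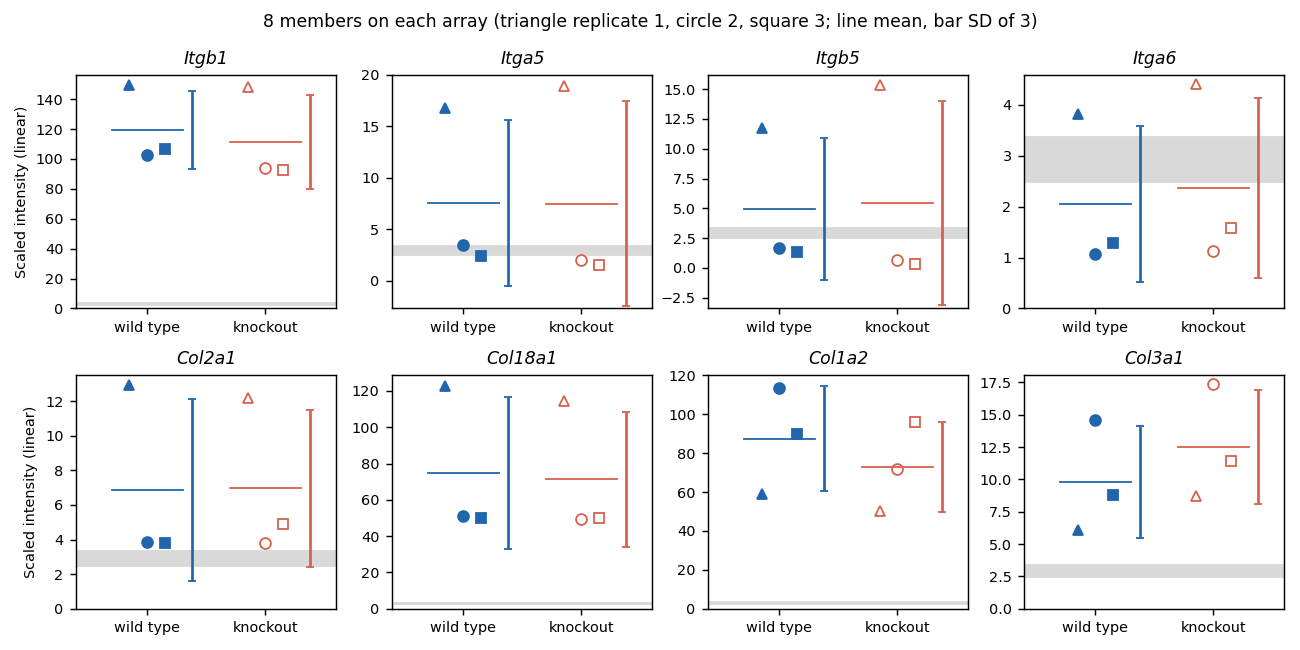
Scaled intensity (linear axis) of 8 members on each array, with wild type filled and knockout open; triangles are replicate 1, circles replicate 2 and squares replicate 3, horizontal lines are means and bars the SD of 3 arrays, and the grey band is the range of the receptor level. In Itga5, Itgb5, Itga6, Col2a1 and Col18a1 the triangle is far above the other symbols in both genotypes, and in Col1a2 and Col3a1 it is the lowest symbol of each genotype.

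The stretches of 250 bases before the annotated starts of 4 of these genes are shown to compare the promoters of the pair that was high on the replicate 1 arrays with those of the pair that was low. They are RefSeq sequences of build GRCm38.p6, read in the direction of the gene. Itga5 is at chr15:103366792-103367041 on the minus strand, Itgb5 at chr16:33829415-33829664, Col1a2 at chr6:4505368-4505617 and Col3a1 at chr1:45311288-45311537, each on the plus strand. Capitals mark matches, on either strand, to the GC box GGGCGG, the box CCAAT and the TATA box TATAAA. No match overlaps another.
Itga5: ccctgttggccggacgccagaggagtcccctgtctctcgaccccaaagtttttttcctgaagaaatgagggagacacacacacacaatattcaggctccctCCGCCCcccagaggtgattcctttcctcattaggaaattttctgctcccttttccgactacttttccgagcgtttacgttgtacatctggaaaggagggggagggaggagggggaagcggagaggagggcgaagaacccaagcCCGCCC
Itgb5: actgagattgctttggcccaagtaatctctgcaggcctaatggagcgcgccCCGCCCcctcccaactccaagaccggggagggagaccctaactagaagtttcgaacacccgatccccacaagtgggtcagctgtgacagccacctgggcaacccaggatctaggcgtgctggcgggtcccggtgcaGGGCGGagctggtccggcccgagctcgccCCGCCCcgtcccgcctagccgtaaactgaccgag
Col1a2: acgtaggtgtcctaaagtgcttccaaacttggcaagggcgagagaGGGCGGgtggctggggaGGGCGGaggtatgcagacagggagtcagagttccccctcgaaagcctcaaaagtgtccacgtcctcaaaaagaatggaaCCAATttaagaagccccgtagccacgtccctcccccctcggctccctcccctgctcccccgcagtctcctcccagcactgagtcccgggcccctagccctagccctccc
Col3a1: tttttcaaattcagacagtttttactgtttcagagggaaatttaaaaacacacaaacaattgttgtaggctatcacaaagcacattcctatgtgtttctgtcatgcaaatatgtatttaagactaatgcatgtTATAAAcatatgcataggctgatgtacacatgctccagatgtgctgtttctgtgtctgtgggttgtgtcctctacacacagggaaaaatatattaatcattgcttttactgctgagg

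The promoters of Itga5, Itgb5 and Col1a2 hold 2, 3 and 2 GC boxes and 11, 18 and 11 CpG dinucleotides, and that of Col3a1 holds 0 of both. Their GC content was 55.6%, 65.2%, 62.0% and 35.2%. The match to CCAAT is in Col1a2, and the match to TATAAA is in Col3a1. They begin 109 and 117 bases before the annotated starts, and whether any match acts as a promoter element was not tested. Of 27025 promoters of that length in the table, 32.9% hold the GC box, 34.5% CCAAT and 13.0% TATAAA. The table matched 43 of the 59 members, of which 24 hold the GC box (55.8%), 12 hold CCAAT and 5 hold TATAAA. The GC box stood in 10 of 16 matched members above the receptor level and in 9 of 20 above it on no array. These counts are a description of letters, and no test was made.

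Markers of other cell types were read on the same arrays. Of 11 endothelial markers, 5 were above the receptor level on all arrays, and Cdh5, the cadherin of vessel walls, and Erg on 0. Their summed intensity was 118 to 159 on wild-type arrays and 105 to 155 on knockout arrays, and 155 to 159 on the replicate 1 arrays against 105 to 140 on the others. Their median difference was 0.02 between genotypes and 1.47 between replicate 1 and the other arrays. Kdr (49.2 against 75.7), Emcn (13.6 against 18.8) and the dim Erg went the other way, and the remaining endothelial markers were higher on replicate 1. Emcn was named after its values were seen. The 9 notochord and cartilage markers summed to 147 to 154 on the replicate 1 arrays and 111 to 123 on the others, but their median difference was -0.10. Most of that sum came from the keratin genes Krt8, Krt18 and Krt19, which epithelia also use. Shh, Sox6, Acan and Matn1 were above the receptor level on 0 arrays and lower on replicate 1, Sox6 by only -0.10. Foxj1 was lower as well (5.71 against 8.67), whereas Sox9 was higher (6.58 against 2.12). These keratins and Foxj1 were named after their values were seen. The 13 somite and sclerotome markers summed to 807 to 1000 on the replicate 1 arrays and 937 to 1002 on the others, with Uncx, Tbx18 and Myf5 on 0 arrays. The somite sums overlapped. Other lists separated as well. Neural tube markers summed to 227 to 231 on the replicate 1 arrays and 88.5 to 129 on the others, but their median difference was -0.11. Most of that sum was Tubb3, named after its values were seen, at 190 and 199 against 64.6 to 96.4. Sox1, Pax6 and Pou3f2 were above the receptor level on 0 arrays. Surface ectoderm and gut markers summed to 189 to 210 against 129 to 147, with 6 of 14 on 0 arrays. Lower in sum on replicate 1 were the blood markers, at 4936 to 5836 against 6710 to 7784. Their median difference was 0.29 all the same, and the globin gene Hba-x, named after its values were seen, averaged 1445 against 3472. The lateral plate and limb markers were also lower in sum, at 19.1 to 20.9 against 34.6 to 37.5. The summed levels of 6 of these 7 lists thus differed between replicate 1 and the other arrays, in both directions. For the notochord and cartilage, neural tube and blood lists the median went the other way from the sum. The part of these lists in the members' values was not tested. The blood and leukocyte markers summed to 5836 to 7723 on wild-type arrays and 4936 to 7784 on knockout arrays, with the leukocyte genes Ptprc and Spi1 above the receptor level on 0 arrays, as were most leukocyte integrins.

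The marker lists gave 0 calls between genotypes in either fit as well. Median differences were -0.05 for 11 presomitic markers, -0.13 for somite, -0.01 for notochord and cartilage, -0.18 for blood, -0.03 for 9 neural tube, -0.03 for 14 surface ectoderm and gut and -0.32 for 8 lateral plate and limb markers. The 2 genes with the smallest p in each list, without the block, follow with their log2 differences. They were Rspo3 (-0.29) and Cyp26a1 (-0.24), Aldh1a2 (1.23) and Tbx18 (-1.02), Sox9 (0.45) and Matn1 (-0.40), and Kdr (-0.26) and Erg (0.83). The others were Alas2 (-0.25) and Spi1 (-0.59), Sox1 (0.65) and Neurog1 (-0.49), Krt15 (-0.77) and Apoa1 (-1.72), and Pitx1 (0.67) and Lhx9 (-1.56). Of these genes, Tbx18, Matn1, Erg, Spi1, Sox1 and Lhx9 were above the receptor level on 0 arrays. Krt15 and Apoa1 were above it on 1 array each. Apoa1 read 4.66 on wild-type replicate 2 and 0.0934 to 0.893 on the other arrays. Aldh1a2, which makes retinoic acid in somites, read 24.3, 3.57 and 5.48 on wild-type arrays and 78.5, 9.22 and 8.46 on knockout arrays. It was higher in the knockout in each pair, by 1.69, 1.37 and 0.63 on the log2 scale, and its groups overlapped. Its unadjusted p in limma was 0.261 without the block and 0.000357 with it (95% interval 0.73 to 1.72), and the blocked adjusted p was 0.999. The part of the somite markers in the members' genotype differences was not tested.

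Genes that work with these chains and receptors did not pass either. Of 18 measured matrix partners and other matrix receptors, 0 passed in either limma fit, 9 differing upward and 9 downward, with a median of 0.01, beside 6856 upward and 6984 downward over all named genes. Without the block the smallest p-values belonged to Tnc, a matrix glycoprotein (0.58), and Egfl6, a basement membrane protein (-0.66). These 2 were above the receptor level on 1 and 0 arrays. In the blocked limma fit the smallest was that of Nid2 (0.24, unadjusted p 0.0287, adjusted p 0.999). Fn1, the fibronectin that Itga5 and Itgb1 bind, read 487, 300 and 336 on wild-type arrays and 489, 283 and 332 on knockout arrays, and Nid2, which links laminin to collagen IV, read 404, 553 and 564 against 462, 632 and 709. As deposited, Fn1 was high and Nid2 low on the replicate 1 arrays, and Fn1 changed sign to -0.13 with 75th percentile centring. Of 16 collagen processing enzymes and chaperones, 5 had positive and 11 negative differences (median -0.06), with the prolyl hydroxylase gene P4ha2 at 0.31 and Adamts3 at -0.45. Of 14 integrin adaptors, 2 had positive and 12 negative differences (median -0.07), with Fermt3 at -0.22 and Cav1 at -0.41, both above the receptor level on 0 arrays.

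Several of these partners also differed between replicates. Serpinh1, the chaperone that folds procollagen, read 388 (wild type) and 403 (knockout) for replicate 1, while the remaining arrays lay at 52.8 to 78.4. Tln1, which links integrins to actin, read 30.9 and 35.8 against 6.36 to 8.81. Agrn, a heparan sulphate proteoglycan of basement membranes, read 62.6 and 72.4 against 12.8 to 16.6. Sparc, a collagen-binding matrix protein, went the other way, at 154 and 146 against 207 to 268. Fn1, Nid2, Serpinh1, Tln1, Agrn and Sparc were named after their values were seen. The median difference between replicate 1 and the other arrays was 1.23 for the matrix partners, 0.24 for the processing enzymes and 0.05 for the adaptors, and 0.45, -0.53 and -0.73 with 75th percentile centring.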

How the data were processed

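Per the labels' protocols, digoxigenin-labelled cRNA made from total RNA was measured on one-colour Applied Biosystems arrays. The labels name a human array, whereas organism and probe annotation are those of mouse. The deposited values are linear probe intensities, scaled by the authors to array medians just under 1. For scaling method, background correction and flags: not given in the sources used here. Any background handling affects dim probes most, and scaling to a common median leaves differences of range.

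The annotation table pairs 14411 of the 33012 probes with 1 gene and 247 with several, and 18354 were unnamed here. Intensities were converted to log2 without offset or filter. Genotypes (3 against 3 arrays) were compared with limma 3.58.1 in R 4.3.3 (lmFit, eBayes with intensity trend, two-sided, Benjamini-Hochberg over all probes, threshold 0.05). Replicate numbers occur in both genotypes. Deviations from group means correlated within number by 0.757, 0.442 and 0.374, so the numbers were taken as pairing the arrays. Numbers 2 and 3 correlated across by 0.397 and 0.419, so the pairing rests on replicate 1 standing apart. The pairing comes from the data, not from the labels, and the replicate block was an alternative. Other alternatives were scaling, offset, filter, probe choice, array weights, variance prior and arrays left out.

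Members and lists were chosen with earlier results of these data known. Named genes are a fixed set of 21 measured matrix genes (26 listed), members with an unadjusted p under 0.05 in either fit, the 3 largest differences in each direction between genotypes (members above the receptor level) and between replicates (members above it on any array), the 3 brightest of each family, and the 2 smallest p of each other list. The smallest p of those lists were taken from the fit without the block. Other members are given by counts or to complete a class. In 10 simulated runs of this comparison (33012 probes, 200 changed, drawn above the array median) recovery with the block was 57.0% for 2-fold and 90.4% for 4-fold changes, with 10.5% false calls. Simulated data held the fitted replicate effects. Tables used pandas 2.3.3 and numpy 2.4.6 under Python 3.11.15, exact tests scipy 1.17.1, figures matplotlib 3.10.9.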

Additional observations from a re-analysis of the deposited data

How the results depend on the processing

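In all 17 alternatives 0 members passed over all probes in limma, with a smallest adjusted p of 0.444 (array weights). The number of all probes that passed was 0 as reported, 2 with the replicate block, 1 with array weights, and 2 without both replicate 1 arrays, with or without the block (the former added after seeing the data). It was 0 with any single array left out. Members at an unadjusted p under 0.05 numbered 0 as reported, 4 with the replicate block, 2 with the block and a variance prior without the intensity trend, 9 with array weights (9.53% of all probes) and 5 without both replicate 1 arrays, with or without the block (4.26% and 5.84% of all probes). With single arrays left out they numbered 0 to 3, with 2 without wild-type replicate 1 (1.27% of all probes) and 3 without knockout replicate 1 (3.01% of all probes). The causes were not tested. The collagen median moved between -0.12 and 0.13 with single arrays left out, the integrin median between -0.18 and -0.03, and the laminin median was -0.36 without both replicate 1 arrays. Under the 99th percentile of receptor probes 8 members were above the level in place of 21, a stricter threshold by construction, and 21 or 22 with single arrays left out. The median difference of replicate 1 was -0.23 with 75th percentile centring and 0.0702 with quantile normalization, both added after seeing the data. Under 75th percentile centring, an alternative also added after seeing the data, 2 of the 29 members named by rule had groups that did not overlap. As deposited this held for 1 of them, Col14a1. Col6a1, whose groups did not overlap either, is not among these 29. Of 29 named members, 2 changed sign with 75th percentile centring, 0 with quantile normalization, 3 with array weights, 3 without both replicate 1 arrays and up to 10 with 1 array left out. The replicate block changed no other call. With 3 arrays a group and no detection calls, differences of dim probes cannot be told from background.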
